A study of Homo sapiens with 28 samples.

Results

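Nuclear-encoded mitochondrial protein transcripts were examined for how fast they are degraded in HEK293T, a cell line derived from human embryonic kidney, and for how that rate depends on the way the RNA was handled. They were taken from the authors' deposited table, which gives constants of RNA degradation, as every transcript whose symbol begins with NDUF, COX and a digit, UQCR, ATP5, SDHA to SDHD, MRPL, MRPS, TIMM or TOMM. The rule used symbols and no measured value, and it found 72 of the 2568 transcripts in that table. Of these, 17 were named NDUF, 1 SDH, 6 UQCR, 6 COX, 10 ATP5, 13 MRPL, 10 MRPS, 4 TIMM and 5 TOMM. Judged by symbol, NDUFAF3 was the single assembly factor among them. Every other one was grouped by its prefix with the subunits, the ribosomal proteins or the import machinery. This grouping rests on the symbol alone. For 10 ATP5 transcripts the table keeps older symbols, among them ATP5B for ATP5F1B, ATP5G3 for ATP5MC3, ATP5G2 for ATP5MC2, ATP5I for ATP5ME and ATP5J for ATP5PF.

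The study measured RNA turnover by nucleotide recoding. Cells of wild-type genotype were given 100 µM 4-thiouridine (s4U), a uridine analogue that enters newly made RNA, for 2 h, or were left unlabelled. A chemical step then turns the incorporated s4U into a base that is read as C, so reads with T-to-C mismatches are more frequent from RNA made during the labelling. The unlabelled libraries give the background of such mismatches. The 3 chemistries used here were SLAM (iodoacetamide), TUC (osmium tetroxide with ammonia) and TimeLapse (sodium periodate with trifluoroethylamine at pH 5.2), and each was run after drop-out handling and after improved handling. Drop-out handling stands for common protocols, and improved handling for protocols meant to keep s4U-labelled RNA and mismatch-bearing reads from being lost. Each chemistry and handling had 2 labelled libraries and 1 unlabelled library, which makes 18 libraries in all. The remaining 10 libraries of the series, from 5 other conditions, were not analysed here. The labels do not say whether the replicates came from separate cultures, or whether the chemistries shared RNA.

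Mitochondria need proteins from 2 genomes. The mitochondrial DNA encodes a few core subunits of respiratory complexes I, III and IV and of the ATP synthase, together with the ribosomal RNAs of the mitochondrial ribosome. All other subunits, every protein of the mitochondrial ribosome and the TOMM and TIMM import machinery are encoded in the nucleus, translated in the cytoplasm and imported. Messages for such housekeeping machinery are generally long-lived, and a rate constant of degradation is the reciprocal measure: a low constant means a stable RNA. Nuclear respiratory factor 1 (NRF1), ETS factors and YY1 are known regulators of the promoters of these genes.

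The 18 libraries held between 1935777 and 9962345 counted reads. Among labelled libraries, 16.7% to 24.98% of the reads had at least 1 T-to-C mismatch after drop-out handling and 40.0% to 58.2% after improved handling, without overlap. In unlabelled libraries the same share was 3.28% to 5.18% after drop-out handling and 2.41% to 3.07% after improved handling. KRT18, an epithelial keratin, was the 1 of 6 kidney epithelial markers in the rate table, and 0 of 7 markers of blood, fibroblast and endothelial cells were in it. The rate table keeps a limited set of transcripts, so a missing marker says nothing of expression.

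The promoters of several of these genes carry letters of the NRF1 site GCGCATGCG, which are shown first because this match was seen in members of complexes I and IV, the ATP synthase and the import machinery, whose turnover is described further on. RefSeq promoter windows on GRCh38.p14, which run from 250 bases before to 50 bases after a start (some genes have several), were at hand for 63 of the 72 genes, and both strands were searched. The stretches below run 5′ to 3′ on the gene's strand, with 25 bases on either side of the match, and the capitals mark the match (on the opposite strand the site reads as its reverse complement).
ATP5I, subunit e of the ATP synthase, chr4:674321-674379, minus strand: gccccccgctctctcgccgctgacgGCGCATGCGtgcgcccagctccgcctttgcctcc
COX6A1, a subunit of complex IV, chr12:120437869-120437927, plus strand: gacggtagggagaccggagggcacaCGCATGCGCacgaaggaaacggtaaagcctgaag
NDUFS6, a subunit of complex I, chr5:1801336-1801394, plus strand: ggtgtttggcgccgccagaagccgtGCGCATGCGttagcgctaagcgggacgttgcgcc
NDUFS7, a subunit of complex I, chr19:1383808-1383866, plus strand: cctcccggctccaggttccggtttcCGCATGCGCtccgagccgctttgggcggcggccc
TOMM7, of the outer membrane import channel, chr7:22822940-22822998, minus strand: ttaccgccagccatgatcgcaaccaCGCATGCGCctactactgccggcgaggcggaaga

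All 5 stretches lie upstream of the gene as RefSeq annotates it. ATP5G2 and ATP5J also had a match, before an internal start within the annotated gene. The NRF1 letters were found in 7 of the 63 genes (11.1%), in 5.13% of the rate table's 2144 genes with a window and in 2.34% of all 27305 genes with one. The ETS core CCGGAAG was found in 24 of the 63 genes (38.1%), in 25.3% of the table's genes and in 12.2% of all genes. The YY1 letters AAGATGGCG, with 5 of 63 genes (7.94%), were about as frequent as among the table's genes (7.18%). At least 1 of the 3 motifs was in 31 of 63 genes (49.2%), against 33.9% of the table's genes and 15.4% of all genes. The NRF1 and ETS letters were most frequent among ATP5 genes, with 3 and 5 of the 6 genes that had a window, and the NRF1 letters were in 0 of 12 MRPL and 0 of 10 MRPS genes. A match is a run of letters and was not measured as a binding site.

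UQCRQ and COX5B carry an ETS match and are shown because UQCRQ had one of the largest differences between handlings and COX5B one of the lowest constants. TOMM20, with one of the smallest differences between handlings, carries an ETS match too. Over all 63 genes, the median of the mean log2 fold change was 1.02 in the 24 genes with an ETS match and 1.59 in the 39 without. Their median levels under improved handling were 0.581 and 0.671 times the table's median.
UQCRQ, a small subunit of complex III, chr5:132866563-132866619, plus strand: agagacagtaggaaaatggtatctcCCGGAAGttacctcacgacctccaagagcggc
COX5B, a subunit of complex IV, chr2:97646000-97646056, plus strand: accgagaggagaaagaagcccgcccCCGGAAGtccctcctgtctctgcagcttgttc

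Every rate constant, log2 fold change and per-chemistry adjusted p given from here on is a value of the authors' deposited table, which holds 1 constant for each transcript, chemistry and handling. The table gives no error for a constant and pools the labelled libraries, and the time unit of the constants is not given in the sources used here. Levels are therefore also given as ratios to the median of all transcripts of the same chemistry and handling. The table listed 35 of the 72 transcripts for SLAM, 64 for TUC and 52 for TimeLapse, out of 1600, 2262 and 2209 transcripts. All 3 chemistries listed 34 of them (47.2%, against 57.6% of the other transcripts), 11 were listed for 2 chemistries and 27 for 1. Listing was thinnest for the mitochondrial ribosome, where 7 of 23 transcripts had a constant in all 3 chemistries.

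Under improved handling the nuclear-encoded mitochondrial transcripts were degraded more slowly than the typical transcript. Their median constant in the authors' deposited table was 0.0452 for SLAM, 0.0612 for TUC and 0.0575 for TimeLapse, against 0.0842, 0.101 and 0.103 for all other transcripts. These medians were 0.543, 0.614 and 0.564 times the median of the whole table. In SLAM 27 of 35, in TUC 46 of 64 and in TimeLapse 44 of 52 had a constant below the table's median. The slowest 25% of the table's transcripts included 18 (51.4%), 31 (48.4%) and 29 (55.8%) of them. The spread among them was wide, from 0.0126 to 0.209 in SLAM, from 0.0178 to 0.211 in TUC and from 0.0124 to 0.211 in TimeLapse.

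A limma fit took the 3 chemistries as the repeated measurements for the 1471 transcripts listed in all of them, 34 of which are nuclear-encoded mitochondrial transcripts. It tests a transcript's mean over the chemistries against 0. The spread of each transcript over the chemistries is pulled towards the spread common to all 1471 transcripts. The SE and p-values given by limma therefore do not rest on the transcript's own spread alone. They cover differences between chemistries only, since each chemistry enters with 1 pooled value. In the limma fits the median of a chemistry is that of these 1471 transcripts, not of the whole table. The log2 levels by limma are thus on another scale than the ratios to the table's median. With Benjamini-Hochberg adjustment over the 1471 transcripts at 0.05, 23 of the 34 (67.6%) had a level under improved handling below the median and 3 had one above it. Among all 1471 transcripts, 37.7% were called below and 37% above. Under drop-out handling 23 of the 34 were also called below and 5 above, against 34.6% and 35.7% of all transcripts. The 3 called above under improved handling were NDUFV3, NDUFA10 and TIMM44.

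**Figure D1:**
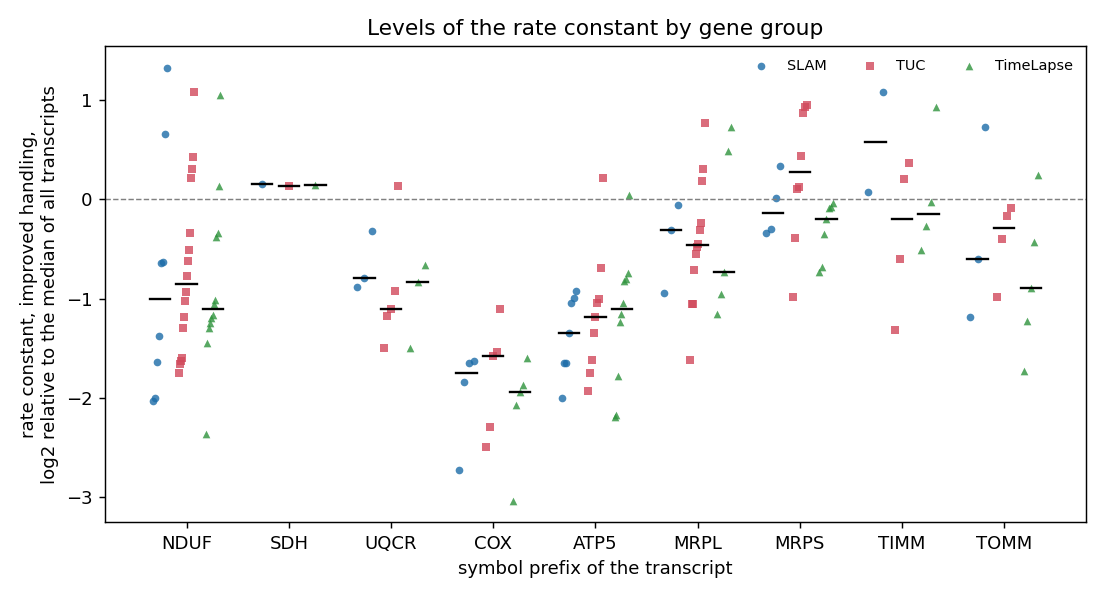
Rate constant under improved handling, as log2 of its ratio to the median of all transcripts of the same chemistry (y axis), for each transcript grouped by symbol prefix (x axis). Points are the constants in the authors' deposited table, colours and shapes are chemistries, and black bars are group medians. COX and ATP5 points lie almost all below the dashed line at 0, whereas MRPS, TIMM and the single SDH transcript lie around it.

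Median constants were lowest in the oxidative phosphorylation machinery and nearer the table's median in the mitochondrial ribosome and the import machinery. The 40 transcripts of complexes I to IV and the ATP synthase, NDUFAF3 included, had median constants 0.393, 0.466 and 0.447 times the table's median in SLAM, TUC and TimeLapse. For the mitochondrial ribosome the ratios were 0.815, 0.826 and 0.829. For import they were 1.05, 0.821 and 0.743. The groups differ in which transcripts each chemistry lists, and no test was made between them.

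Complex IV, the cytochrome c oxidase that passes electrons to oxygen, had the slowest group. The median constants of its COX transcripts were 0.0249, 0.0335 and 0.0266 in SLAM, TUC and TimeLapse, or 0.298, 0.336 and 0.261 times the table's median. Each COX transcript lay among the slowest 25% in every chemistry that listed it. COX6A1 had the lowest mean level of all 34 transcripts, with 0.0126 in SLAM, 0.0335 in TUC and 0.0279 in TimeLapse. COX5A had 0.0266, 0.0204 and 0.0242, and COX5B 0.0269, 0.0178 and 0.0336. COX7C had the highest mean level of the COX transcripts listed in all 3 chemistries, with 0.0233, 0.0343 and 0.0266. The values of these 4 genes overlap across chemistries, so their order within the group is not set. By limma over the 3 chemistries, all 4 were below the median, with a log2 level of -1.98 (SE 0.21, adjusted p = 3.46e-05) for COX6A1 and -1.69 (SE 0.13, adjusted p = 5.39e-06) for COX7C.

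The ATP synthase uses the proton gradient to make ATP. Its ATP5 transcripts had median constants of 0.0327, 0.0440 and 0.0475, or 0.393, 0.441 and 0.466 times the table's median. ATP5B encodes the catalytic beta subunit and was the slowest of them, with 0.0208 in SLAM, 0.0262 in TUC and 0.0223 in TimeLapse. ATP5G3 encodes the proton-carrying subunit c and had the highest mean level of those listed in all 3 chemistries, with 0.0406, 0.116 and 0.105. Its SLAM value was well below the values of TUC and TimeLapse, and limma did not call its level different from the median (log2 level -0.18, SE 0.23, adjusted p = 0.494). ATP5G2 encodes the same mature subunit c from another gene and had 0.0440, 0.0498 and 0.0608. The constant of ATP5G2 was lower than that of ATP5G3 in TUC and TimeLapse and slightly higher in SLAM.

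Complex I, the NADH dehydrogenase, spanned the widest range. The median constants of NDUF transcripts were 0.0428, 0.0555 and 0.0473, or 0.498, 0.556 and 0.464 times the table's median. NDUFV3, an accessory subunit of the NADH-binding part, had 0.209, 0.211 and 0.211 and was the fastest of all 34 transcripts. Its log2 level by limma was 1.23 (SE 0.12, adjusted p = 2.05e-05). NDUFB11, of the membrane arm, had the lowest mean level of the NDUF transcripts listed in all 3 chemistries, with 0.0208, 0.0297 and 0.0198 and a log2 level of -1.96 (SE 0.14, adjusted p = 3.9e-06). These 2 subunits of one complex thus lay apart by more than the whole spread between chemistries. NDUFA10, another accessory subunit, was high at 0.132, 0.124 and 0.112.

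Complex I was also split by name series, a choice made after the values were seen. The median constant of NDUFS and NDUFV transcripts was 0.0536 in SLAM (4 transcripts), 0.0700 in TUC (7) and 0.0782 in TimeLapse (5). For NDUFB it was 0.0208 (3 transcripts), 0.0329 (5) and 0.0395 (4), below NDUFS and NDUFV in each chemistry. For NDUFA, NDUFAB1 included, it was 0.132 (1 transcript), 0.124 (3) and 0.0776 (2). NDUFA10 and NDUFA11 (0.134 in TUC) are membrane-arm subunits like the NDUFB series, so high and low constants both occur in that arm. In TimeLapse the ranges of NDUFS and NDUFV and of NDUFB did not overlap. The lowest NDUFS or NDUFV value was 0.0456 (NDUFV1) and the highest NDUFB value was 0.0446 (NDUFB9). These nearly equal values were at percentiles 15.3 and 14.8 of all transcripts, so most of the table also lay above the NDUFB range. In SLAM and TUC those of NDUFS and NDUFV and of NDUFB did overlap.

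Complex II was represented by SDHA alone, the flavoprotein that oxidises succinate. It lay just above the table's median in each chemistry, with 0.0928, 0.110 and 0.112. In complex III, UQCRC1 encodes a core protein and had 0.0452, 0.0353 and 0.0362. UQCRQ, a small subunit, had 0.0483, 0.0443 and 0.0644, above UQCRC1 in each chemistry.

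Transcripts for the mitochondrial ribosome, which translates the messages of mitochondrial DNA, lay nearer the middle of the table. MRPL24 of the large subunit had the lowest mean level of the MRPL transcripts listed in all 3 chemistries, with 0.0433, 0.0481 and 0.0527 (log2 level -0.90, SE 0.12, limma adjusted p = 0.000123). MRPL28 was the fastest MRPL transcript listed in all chemistries, with 0.0804, 0.0718 and 0.169. TimeLapse stood apart there, and limma did not call the level of MRPL28 different from the median (adjusted p = 0.534). In the small subunit, MRPS26 had 0.105, 0.109 and 0.0991 and MRPS34 had 0.0660, 0.0504 and 0.0636, without overlap. The MRPS median went from 0.907 and 0.874 times the table's median in SLAM and TimeLapse to 1.21 times in TUC, where 4 MRPS transcripts were listed in SLAM, 7 in TimeLapse and 8 in TUC.

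Among import transcripts, TIMM44, which tethers the import motor to the inner membrane channel, was the fastest. Its constants were 0.176, 0.129 and 0.194, and its log2 level was 0.87 (SE 0.15, limma adjusted p = 0.00072). TOMM40 encodes the channel of the outer membrane and had 0.138, 0.0940 and 0.121. Its level missed the threshold in limma (log2 level 0.38, SE 0.16, adjusted p = 0.0537). TIMM13, a small chaperone of the space between the membranes, had 0.0879, 0.0659 and 0.0715, and TOMM20, an import receptor, had 0.0367, 0.0756 and 0.0757. The SLAM constant of TOMM20 was the low one.

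The order of the transcripts was alike between chemistries. Across the 34 transcripts the Spearman correlation of constants under improved handling was 0.840 between SLAM and TUC, 0.837 between SLAM and TimeLapse and 0.860 between TUC and TimeLapse. Among the 1437 other transcripts it was 0.922, 0.936 and 0.946, over a wider range of constants. The highest of a transcript's 3 constants was 1.47 times the lowest at the median, against 1.35 for other transcripts. These correlations run across genes, which are not independent replicates, and the chemistries share a cell line and may share RNA. Genomic length of the gene, from its annotated start to its end, correlated weakly with the constant under improved handling. Spearman was 0.363 in SLAM (35 transcripts), 0.395 in TUC (64) and 0.212 in TimeLapse (52). Other transcripts were not examined for it.

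**Figure D2:**
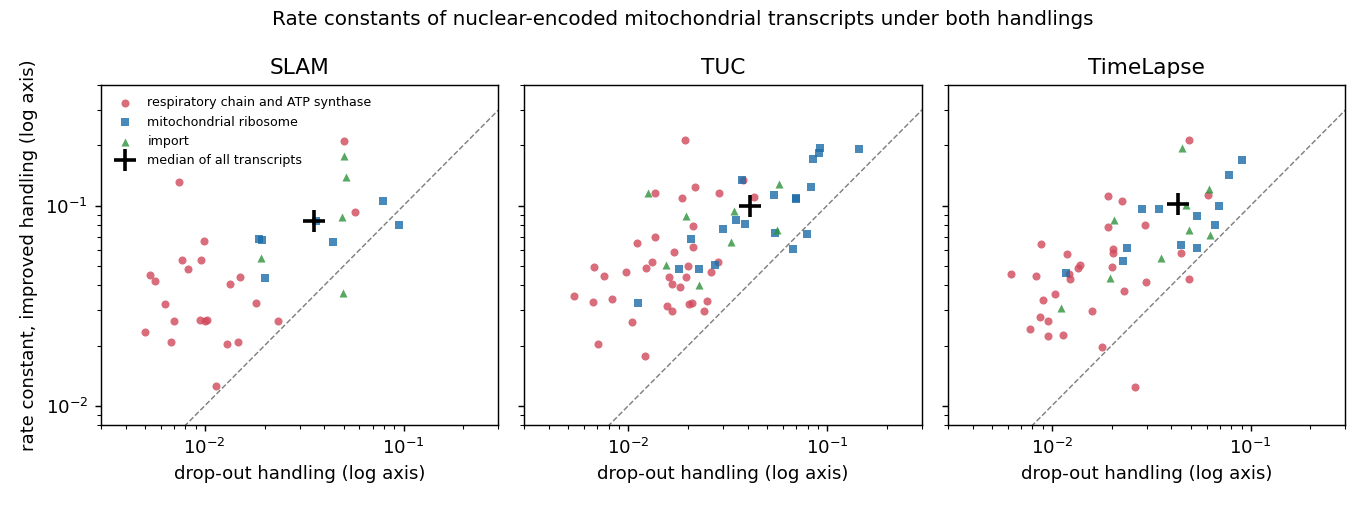
Rate constant under improved handling (y axis, log scale) against that under drop-out handling (x axis, log scale) for each transcript, 1 panel for each chemistry, with values from the authors' deposited table. Colours and shapes give the functional class, the plus sign is the median of all transcripts, and the dashed line marks equal constants. Nearly all points lie above the line, and respiratory chain and ATP synthase points lie mostly below and to the left of the plus sign.

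Constants were higher after improved handling than after drop-out handling for nearly all of these transcripts. Under drop-out handling their median was 0.0147 in SLAM, 0.0210 in TUC and 0.0216 in TimeLapse, against 0.0356, 0.0416 and 0.0433 for all other transcripts. The median log2 fold change in the authors' deposited table, improved over drop-out handling, was 1.57, 1.37 and 1.51 for SLAM, TUC and TimeLapse, which are 2.98-, 2.59- and 2.84-fold. For all other transcripts it was 1.14, 1.18 and 1.17. The constant was the lower one under improved handling in 6 of the 151 values of these transcripts, none of them called. Among all transcripts the log2 fold change was below 0 in 137 of 1600 in SLAM, 161 of 2262 in TUC and 156 of 2209 in TimeLapse. Most of the table thus shared the rise.

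By the authors' adjusted p under 0.05, 17 of 35 nuclear-encoded mitochondrial transcripts (48.6%) were called higher under improved handling in SLAM, where 48.9% of all transcripts were. In TUC the count was 25 of 64 (39.1%), against 48.1% of all transcripts, and in TimeLapse 22 of 52 (42.3%), against 52.6%. None was called lower in any chemistry, where 1.44%, 0.442% and 0.679% of all transcripts were called lower in SLAM, TUC and TimeLapse. The share called was thus at or below that of the table. At least 1 chemistry called 32 of the 72 (44.4%), against 59.9% of all 2568 transcripts. Of the 34 listed in all chemistries, 14 were called in all 3 (41.2%, against 36.0% of other transcripts) and 13 in none (38.2%, against 29.4%). Among the 14 were NDUFA10, NDUFB9, NDUFV1, NDUFV3, UQCRC1, UQCRQ, COX7C, ATP5B, ATP5G2, MRPL37, MRPS25, TIMM44 and TOMM40.

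Over the 3 chemistries in limma, 30 of the 34 (88.2%) had a higher constant under improved handling at adjusted p under 0.05. None had a lower one, and none did at an unadjusted p under 0.05. Among all 1471 transcripts, 79.5% were called higher and 1.29% lower. The table as a whole shifted with handling, so the fit was repeated on the change relative to each chemistry's median change. Then 11 of the 34 (32.4%) rose more than the median, against 18.3% of all transcripts, and 5 (14.7%) rose less, against 19.7%. These relative calls depended on which chemistries entered. Without TUC limma called 0 of the 1471 transcripts in either direction, although at an unadjusted p under 0.05 it had 11 of the 34 rising more (32.4%, against 18.2% of all transcripts) and 5 rising less (14.7%, against 19.4%). Without SLAM 8 of the 34 rose more and 1 rose less, against 14.3% and 13.5% of all transcripts. Without TimeLapse the counts were also 8 and 1, against 10.6% and 10.9%.

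Those that rose more than the median included NDUFV1, NDUFV3, NDUFA10, NDUFB9, UQCRC1, UQCRQ, COX5A, COX7C, ATP5G3 and MRPL37. All but MRPL37 belong to the respiratory chain or the ATP synthase, as do 22 of the 34 transcripts tested. The 5 that rose less were NDUFB10, NDUFB11, MRPL28, MRPS26 and TOMM20.

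**Figure D3:**
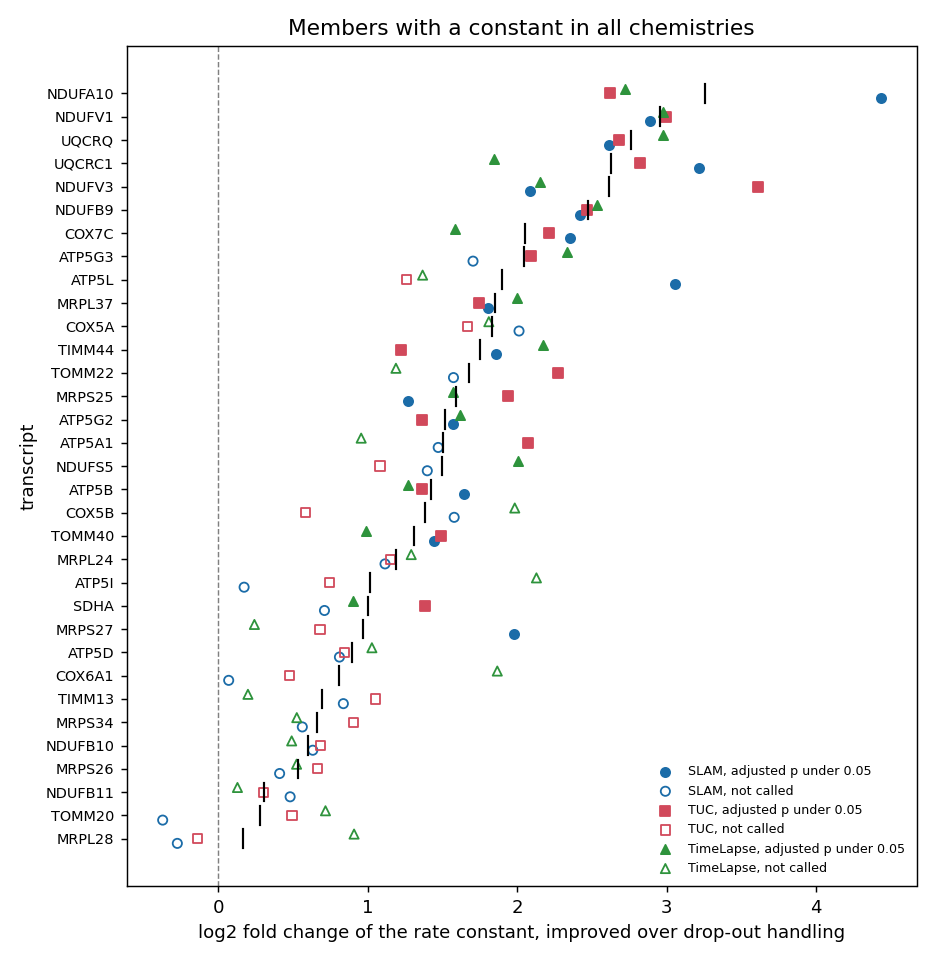
Log2 fold change of the rate constant, improved over drop-out handling (x axis), in the authors' deposited table for transcripts listed for all 3 chemistries (y axis, 1 of the 34 not drawn), ordered by mean. Filled symbols have an authors' adjusted p under 0.05, open symbols do not, and black ticks are the mean over chemistries. Filled symbols gather at the top, where NDUFA10, NDUFV1 and UQCRQ lie, and MRPL28 and TOMM20 at the bottom have values on both sides of 0.

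By mean log2 fold change over the chemistries, the largest differences among the 34 transcripts were in complexes I and III. NDUFA10 went from 0.00747 to 0.132 in SLAM, from 0.0217 to 0.124 in TUC and from 0.0191 to 0.112 in TimeLapse. Its deposited log2 fold changes were 4.43, 2.62 and 2.72, with authors' adjusted p of 9.82e-05, 0.000972 and 0.00235. The high SLAM value came with the lowest of its constants under drop-out handling. NDUFV1, which encodes the NADH-binding core subunit, went from 0.00768 to 0.0537, from 0.00672 to 0.0492 and from 0.00626 to 0.0456. It had nearly the same fold in each chemistry, with log2 fold changes of 2.89, 2.999 and 2.97. UQCRQ went from 0.00826 to 0.0483, from 0.00753 to 0.0443 and from 0.00887 to 0.0644, with log2 fold changes of 2.62, 2.68 and 2.98. UQCRC1 went from 0.00532 to 0.0452, from 0.00534 to 0.0353 and from 0.0104 to 0.0362, with 3.21, 2.82 and 1.85. These transcripts started low among all transcripts under drop-out handling. In SLAM, TUC and TimeLapse, NDUFV1 was at percentiles 3.9, 0.80 and 0.68, and UQCRQ at 4.9, 1.1 and 2.5. UQCRC1 was at 1.4, 0.44 and 4.4, and NDUFA10 at 3.3, 23.9 and 18.8. The part of the low start in the large fold changes was not tested. Under limma, NDUFV1 and UQCRQ rose beyond the median change by 1.79 and 1.59 on the log2 scale, both with adjusted p = 0.0037.

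NDUFV3 had a higher starting level than these in SLAM and TimeLapse, but in TUC it started below NDUFA10 (0.0217). The constants of NDUFV3 under drop-out handling were 0.0503, 0.0192 and 0.0493 in SLAM, TUC and TimeLapse. Under improved handling they came together at 0.209, 0.211 and 0.211. Its log2 fold change was accordingly larger in TUC, at 3.61, than in SLAM (2.09) and TimeLapse (2.15).

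The 40 oxidative phosphorylation transcripts had median log2 fold changes of 1.71, 1.82 and 1.81 in SLAM, TUC and TimeLapse, and 12 of 23 (52.2%), 19 of 36 (52.8%) and 16 of 31 (51.6%) were called higher. Pooled over the complexes, these shares were near the 48.9%, 48.1% and 52.6% of all transcripts. Complexes I and III lay above those shares in each chemistry, and complex IV and the ATP synthase below, all over few transcripts. In complex I the medians were 2.25, 2.04 and 1.97, and 5 of 8 (62.5%), 10 of 16 (62.5%) and 8 of 12 (66.7%) were called higher. In complex III the medians were 2.97, 2.68 and 2.57, and 3 of 3, 3 of 5 (60%) and 3 of 3 transcripts were called higher. Complex IV had medians of 1.80, 1.67 and 1.81. There COX7C was the 1 transcript called in each chemistry, of 4 (25%), 5 (20%) and 5 (20%). COX7C went from 0.00503 to 0.0233, from 0.00826 to 0.0343 and from 0.00953 to 0.0266. The ATP synthase had medians of 1.57, 1.36 and 1.49, and 3 of 7 (42.9%), 4 of 9 (44.4%) and 3 of 10 (30%) were called higher. ATP5B was called in each chemistry with 1.64, 1.36 and 1.27.

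Some transcripts had quite unlike values between chemistries. ATP5I had log2 fold changes of 0.17 in SLAM, 0.75 in TUC and 2.13 in TimeLapse. COX6A1 had 0.07, 0.48 and 1.87. In both the constants under drop-out handling were lowest in TimeLapse, and those under improved handling were lowest in SLAM. No chemistry called either gene.

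Transcripts of the mitochondrial ribosome had median log2 fold changes of 1.12, 1.07 and 0.93, below those of the oxidative phosphorylation group in each chemistry. Of them 3 of 7 (42.9%) were called higher in SLAM, 2 of 20 in TUC (10%) and 3 of 12 in TimeLapse (25%), against 48.9%, 48.1% and 52.6% of all transcripts. MRPL24 had 1.12, 1.16 and 1.29 and was not called in any chemistry. MRPS26 and MRPS34 had 0.41 and 0.56 in SLAM, 0.66 and 0.90 in TUC and 0.53 and 0.53 in TimeLapse. MRPL28 was higher under drop-out handling in SLAM and TUC, with -0.27 and -0.14, and had 0.91 in TimeLapse. MRPL41, listed for TUC alone, had -0.14.

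For import the medians were 1.44, 1.36 and 1.11, and 2 of 5 (40%), 4 of 8 (50%) and 3 of 9 (33.3%) were called higher, against 48.9%, 48.1% and 52.6% of all transcripts. TIMM44 had 1.86, 1.22 and 2.18 and TOMM40 had 1.44, 1.49 and 0.99, and both were called in each chemistry. TIMM13 had 0.84, 1.05 and 0.20, and TOMM20 had -0.37, 0.49 and 0.72, with no call. SDHA had 0.71, 1.39 and 0.90 and was called in TUC (adjusted p = 0.00422) and TimeLapse (adjusted p = 0.0166). NDUFB11 had 0.48, 0.30 and 0.13 and the smallest mean of the oxidative phosphorylation transcripts listed in all chemistries. Listed for TimeLapse alone, COX6C had -0.91, from 0.0263 to 0.0124, and NDUFAB1, the mitochondrial acyl carrier protein, had -0.16. Neither was called (adjusted p = 0.385 and 0.847).

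The authors' deposited table also lists 11 mRNAs, MT-ND5 and MT-ND6 not among them, for partners of these proteins that mitochondrial DNA encodes. The log2 fold changes of these mRNAs lay between -0.48 and 0.30 over the 3 chemistries. The 11 mitochondrial mRNAs had a median log2 fold change of -0.18 in SLAM, -0.12 in TUC and 0.05 in TimeLapse, and none was called higher by the authors' adjusted p (the table gives no unadjusted p). SLAM called 2 of them lower, MT-CO2 (adjusted p = 0.0462) and MT-CYB (adjusted p = 0.0449). The highest log2 fold change of any mitochondrial mRNA was 0.04 in SLAM, 0.23 in TUC and 0.30 in TimeLapse. Above those values lay 33 of 35 (94.3%), 62 of 64 (96.9%) and 47 of 52 (90.4%) of the nuclear-encoded transcripts, as did 90.6%, 87.9% and 85.0% of all transcripts. Most of the table thus shared the separation from the mitochondrial mRNAs. The converted share of labelled libraries rose with handling in the same libraries, and its part in these differences was not tested.

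**Figure D4:**
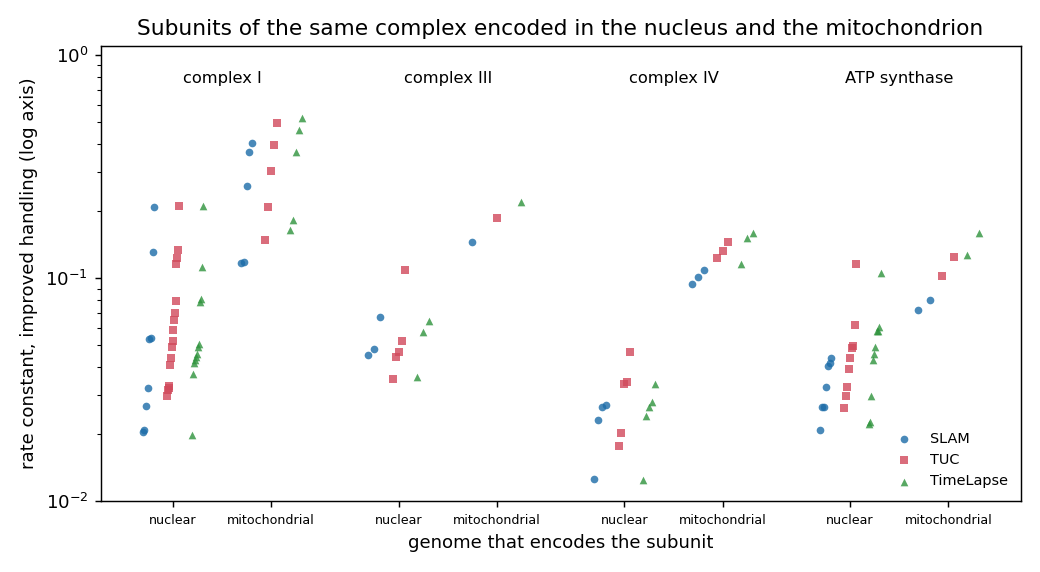
Rate constant under improved handling (y axis, log scale) from the authors' deposited table for subunits encoded in the nucleus and in the mitochondrion (x axis), complex by complex. Each point is 1 transcript, and colours and shapes give the chemistry. In complexes III and IV every mitochondrially encoded point lies above every nuclear-encoded point of the same chemistry. Most of all transcripts lie below these mitochondrial points too. In SLAM, TUC and TimeLapse, MT-CO1, the lowest in complex IV, is at percentiles 56.6, 62.1 and 56.9, and MT-CYB at 78.3, 80.6 and 86.1.

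In complexes III and IV, subunits encoded in the mitochondrion had higher constants than those encoded in the nucleus. In complex IV the nuclear-encoded transcripts spanned 0.0126 to 0.0269 in SLAM, 0.0178 to 0.0465 in TUC and 0.0124 to 0.0336 in TimeLapse. MT-CO1, MT-CO2 and MT-CO3 spanned 0.0939 to 0.109, 0.123 to 0.146 and 0.116 to 0.159. The groups did not overlap in any chemistry. MT-CO1, the lowest of the MT-CO transcripts, was at percentiles 56.6, 62.1 and 56.9 of all transcripts, so most of the table also lay below it. In complex III, MT-CYB had 0.145, 0.186 and 0.220, above the highest UQCR transcript at 0.0668, 0.109 and 0.0644. MT-CYB was at percentiles 78.3, 80.6 and 86.1 of all transcripts, so most of the table also lay below it. In complex I the 5 MT-ND transcripts listed had medians of 0.259, 0.304 and 0.367, against 0.0428, 0.0555 and 0.0473 for NDUF transcripts. The ranges overlapped through NDUFV3 in each chemistry and NDUFA10 in SLAM. For the ATP synthase, MT-ATP6 and MT-ATP8 had 0.0722 to 0.0796 in SLAM and 0.127 to 0.159 in TimeLapse, above every ATP5 transcript. The lower of the pair was at percentile 43.2 of all transcripts in SLAM (MT-ATP8) and 62.0 in TimeLapse (MT-ATP6). In TUC MT-ATP6 and MT-ATP8 had 0.102 to 0.125, and ATP5G3 at 0.116 fell among them. For the mitochondrial ribosome the direction was the opposite. Its ribosomal RNAs had 0.0249, 0.0411 and 0.0388 (MT-RNR1) and 0.0147, 0.0231 and 0.0160 (MT-RNR2) in SLAM, TUC and TimeLapse. MRPL and MRPS transcripts had medians of 0.0679, 0.0825 and 0.0846 and minima of 0.0433, 0.0325 and 0.0459, with overlap in TUC only. MT-RNR1 was at percentiles 7.6, 11.8 and 10.8, so most of the table also lay above it.

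**Figure D5:**
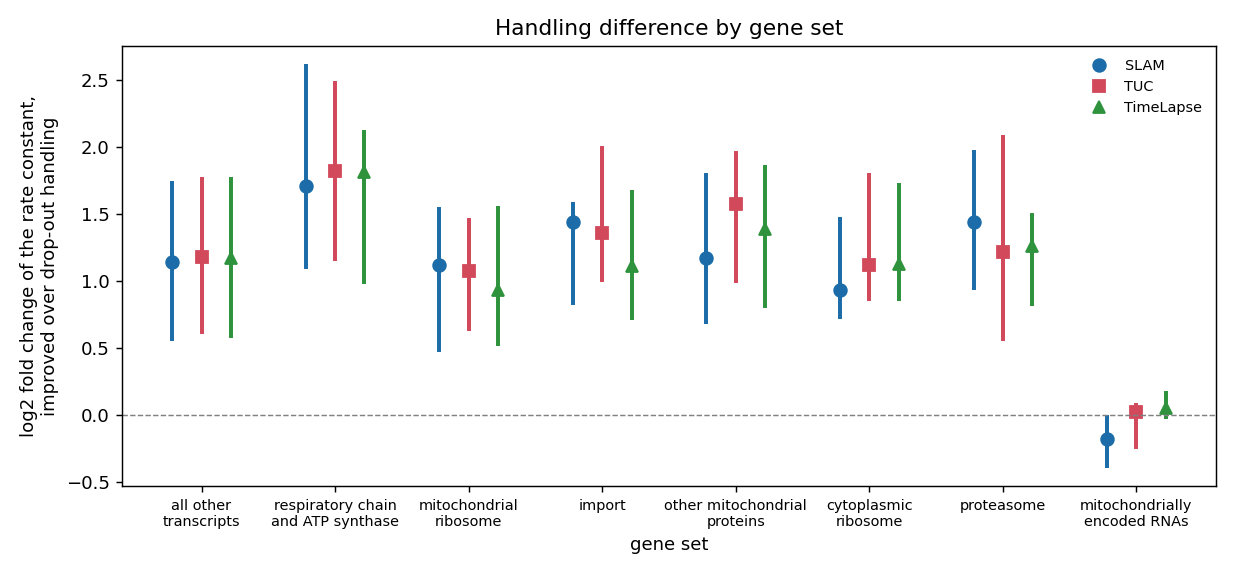
Median log2 fold change of the rate constant, improved over drop-out handling (y axis), by gene set (x axis) and chemistry, from the authors' deposited table. Symbols are medians and vertical lines run from the first to the third quartile over transcripts. Respiratory chain and ATP synthase medians lie between 1.71 and 1.82, all other transcripts between 1.14 and 1.18, and mitochondrially encoded RNAs near 0.

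Other protein machines gave a frame for these values. Transcripts of cytoplasmic ribosomal proteins had median constants 0.282, 0.339 and 0.286 times the table's median in SLAM, TUC and TimeLapse, below the oxidative phosphorylation transcripts as a whole and near the COX transcripts. Their log2 fold changes were 0.93, 1.12 and 1.13, below those of the oxidative phosphorylation group in each chemistry. Proteasome transcripts had level ratios of 0.781, 0.673 and 0.718 and log2 fold changes of 1.44, 1.22 and 1.26. No test was made between these sets.

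Of 91 further nuclear genes for mitochondrial proteins outside the prefixes, such as enzymes of the citric acid cycle, carriers and chaperones, 44 were in the table. Their median constants were 0.514, 0.555 and 0.571 times the table's median, close to the 0.543, 0.614 and 0.564 of the prefix-named transcripts. In SLAM 14 of 34 (41.2%), in TUC 27 of 40 (67.5%) and in TimeLapse 19 of 41 (46.3%) were called higher, against 48.9%, 48.1% and 52.6% of all transcripts, and none lower. Among the 32 listed in all chemistries, the fatty acid oxidation subunit HADHA had the lowest mean level, with 0.0126, 0.0201 and 0.0263 and log2 fold changes of 0.59, 0.70 and 0.11. The mitochondrial DNA polymerase POLG had the highest mean level, with 0.242, 0.197 and 0.246 and log2 fold changes of 2.61, 2.11 and 1.90, called in each chemistry. Of 8 regulators of mitochondrial genes, PPRC1, a coactivator that works with NRF1, was the one in the table. Its constants under improved handling, 0.674, 0.683 and 0.839, were 8.09, 6.84 and 8.23 times the table's median.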

How the data were processed

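Libraries were made from total RNA with a stranded kit, per the labels' protocols. The authors' deposited count table gives read counts by gene and number of T-to-C mismatches, and their deposited rate table gives first-order degradation rate constants, log2 fold changes and adjusted p-values (improved over drop-out handling), 1 per transcript and chemistry. The submitters' processing notes name cutadapt, HISAT2, STAR, Picard, HTSeq, DESeq2 and GRCh38. The rate table names TimeLapse where sample titles read TL, and these were taken as the same.

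Counts (HISAT-3N alignment, the table's settings D) were used for depth and for the share of reads with at least 1 mismatch; 95% Wilson intervals of that share reach 0.0658 percentage points at most, cover counting error only and leave out replicate spread. The count table carries Ensembl identifiers, and the tables at hand pair none with symbols. The planned count tests were therefore not run, and the rate constants were used in their place. Precision of a single constant is not known, since the table gives no error for it.

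Calls used the deposited adjusted p under 0.05. A limma fit (version 3.58.1, R 4.3.3) over the 3 chemistries was added after the data were seen, on log2 values, with Benjamini-Hochberg adjustment over 1471 transcripts. Only the fit of the handling change was tried on simulated data, with independent noise and most transcripts unchanged. That setting differs from these data, where most transcripts shifted, and the level and relative fits were not simulated. The sign of the deposited fold change differed from that of the ratio of the constants in 20 of 6071 values, none from the 72 transcripts. Members and lists were chosen with earlier results of these data known. Transcripts were named as the 5 highest and 5 lowest levels, the ends of each prefix group, the 3 largest and 3 smallest fold changes, and any with a higher constant under drop-out handling, which gave 24; others were named as examples after their values were seen. Motifs were searched as exact letters in RefSeq promoter windows. Alternatives were a stricter p, transcripts in all chemistries, no assembly factors, means, the ratio of constants, a trend in limma and leaving out each chemistry. Values of 1 transcript are not reported here singly; it is counted in the group values.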

Additional observations from a re-analysis of the deposited data

Results flagged for a closer look

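MRPL28 and TOMM20 had log2 fold changes of the rate constant on both sides of 0 in different chemistries, improved over drop-out handling, in the authors' deposited table. MRPL28 had 0.91 in TimeLapse, -0.14 in TUC and -0.27 in SLAM. TOMM20 had 0.72 in TimeLapse, 0.49 in TUC and -0.37 in SLAM. None of these values was called by the authors' adjusted p, and the difference between chemistries was not tested, since each chemistry gives 1 pooled value.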

How the results depend on the processing

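Most values kept their direction and size under the alternatives, with 47 values for whole groups of transcripts within the range counted as unchanged (1 SD over the chemistries, or 1.5 times for a count) and 11 outside it; none changed direction. Means in place of medians gave a log2 level of -0.72 in SLAM and log2 fold changes of 1.51 in TUC and 1.39 in TimeLapse. Transcripts listed in all 3 chemistries gave a log2 level of -0.91 in TUC. At an adjusted p under 0.01, 16 of 64 transcripts were called higher in TUC and 12 of 52 in TimeLapse (25% and 23.1%, against 27.0% and 33.5% of all transcripts), and 9 calls of single named transcripts were lost. For the change relative to the median, limma without TUC called 0 higher and 0 lower, and without SLAM or without TimeLapse 1 lower; the cause was not tested. Under drop-out handling, limma without SLAM called 3 of the 34 above the median, against 33.9% of all 1471 transcripts. By replicate number, no paired analysis was possible because the deposited constants pool the replicates, and for the same reason no replicate was left out; the limma fits of handling compare both handlings within each chemistry. The planned edgeR and DESeq2 tests on counts, with their alternatives, were not run, since identifiers could not be paired with symbols.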
